A study of Mus musculus with 55 samples.

Results

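CTCF-AID cells are mouse embryonic stem (ES) cells, here a line of 1 clone made from 129/Ola E14Tg2a cells, in which CTCF carries an auxin-inducible degron, a tag that lets indole-3-acetic acid (IAA) trigger destruction of the protein. Of the 55 libraries of the series, 7 bear on how such cells resumed transcription when they left mitosis with IAA present: 3 of mitotic cells (replicates 1, 2 and 3), 2 at 50 min after release (replicates 1 and 3) and 2 at 60 min (replicates 1 and 2). They were selected by stage and treatment, and each library at 50 or 60 min was compared with the mitotic library of its own replicate, which gave 4 paired differences. All cells of these groups had been held in RO-3306, a CDK1 inhibitor (10 µM, 4 h), then in nocodazole, which blocks spindle assembly (50 ng/ml, 4 h), and had been collected by shake-off. IAA (0.5 mM) was present for the last 2 h in nocodazole and through release, so that it was present in the mitotic libraries too. The 7 libraries of the same stages and replicates from cells without IAA (−IAA) carried the same tag and went through the same blocks. Ribo-depleted RNA was sequenced with strand kept, and the measurement is the abundance of the unspliced isoform of 10237 genes, read here as pre-mRNA. It is given in TPM, a unit that is per length and scaled to a fixed total within a library. Histone and microRNA entries are among these genes, and for a gene without introns this isoform cannot be told apart from mRNA. Differences are given on the log2(TPM + 1) scale unless stated, which understates the change of genes at low levels, and genes with an adjusted p below 0.05 in limma are said to have risen or fallen.

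Condensed mitotic chromosomes are largely silent, and most transcription factors and RNA polymerase II leave them. When cells divide, transcription restarts within minutes, first as short-lived pre-mRNA, since introns are removed soon after they are copied. Pre-mRNA therefore follows recent transcription more closely than the stable mRNA does. CTCF is a zinc-finger protein that binds insulators and many promoters, halts loop extrusion by cohesin and, in ES cells, stays on a share of its sites during mitosis. The question put to these libraries is whether the post-mitotic burst takes place, and at which genes, when CTCF has been degraded.

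The libraries had the markers of the labelled cell type. Of 14 ES cell markers, 13 were among the genes of the table, and their summed level ran from 62.8 to 102 TPM in the mitotic libraries and from 126 to 154 TPM at 50 and 60 min. None of 7 primitive endoderm markers was listed, and of the trophoblast, mesoderm, neural and fibroblast markers 3 of 5, 1 of 4, 2 of 4 and 3 of 7 were. Summed levels of these 4 lists were at most 3.46, 1.35, 2.08 and 0.518 TPM at mitosis and 16.9, 2.36, 9.8 and 4.15 TPM at 50 and 60 min. Replicate 2 stood apart in both arms. T, the mesoderm marker, was at 1.35 TPM in its mitotic +IAA library and 1.24 TPM in the −IAA one, against at most 0.0518 TPM in replicates 1 and 3, and the same mitotic libraries held less Zfp42, Pou5f1, Tet1 and Spry4. IAA acts on the CTCF protein, so the RNA of Ctcf does not check the treatment. Ctcf pre-mRNA stood at 6.41, 6.1 and 7.18 TPM at mitosis, 10.1 and 11.5 TPM at 50 min, and 10.4 and 10.9 TPM at 60 min with IAA, where the values follow the order of replicates given above, and at 5.74, 6.15 and 6.78 TPM at mitosis, 9.41 and 10.1 TPM at 50 min, and 9.69 and 10.1 TPM at 60 min without it. In both arms every library at 50 and 60 min was above every mitotic library for this gene. The part of other cell types in any result was not tested.

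Pre-mRNA was higher at 50 and 60 min than at mitosis for most genes of CTCF-depleted cells. The median difference over genes was 0.60, 0.67 and 0.61 in replicates 1, 2 and 3, or 0.62 ± 0.036 (SD, n = 3), with the values at 50 and 60 min averaged for replicate 1. Its size depends on the scale, at 0.39 when a factor that multiplies each library's values, unexplained in the sources used here, is removed and 0.99 with a pseudocount of 0.1, and the SD does not cover that. Across the 4 paired differences, between 87.2% and 92% of genes were above their mitotic level. With both stages in 1 contrast, 8340 genes rose (81.5% of 10237), 501 fell (4.89%) and 1396 did not pass the test. The lower and upper quartiles over genes were 0.29 and 0.98, 2461 of those that rose did so by more than 1 and 97 by more than 2. In all 4 paired differences 8568 genes were higher (83.7%) and 639 lower (6.24%). The share of genes with every library at 50 and 60 min above every mitotic one is not given here. Where a lack of overlap is stated for a gene, it describes that gene only. Gene by gene the differences of the 4 pairs correlated with r from 0.88 to 0.96 across 10237 genes, which are not independent replicates, and the pairs of replicate 1 share a mitotic library. With replicates 1, 2 and 3 left out in turn, 8188, 8050 and 8017 genes rose and 359, 516 and 361 fell. Without the replicate block 7735 rose and 308 fell.

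The summed pre-mRNA TPM rose with the burst. The TPM of all genes listed summed to between 17777 and 22522 in the 3 mitotic libraries, between 41357 and 43058 at 50 min and between 37872 and 38314 at 60 min, and within a replicate the sum grew 1.81- to 2.13-fold. When every library was rescaled to the same total, which removes any rise that all genes share, the median of all genes moved from 0.63 to 0.057, with 4427 genes higher and 3667 lower. What follows is therefore read against the median gene, and the value after rescaling is given beside each gene list. Counts of list members are those before rescaling, and at the same total the balance of higher and lower members turned in some lists and not in others. Genes entered the table by their level in asynchronous or post-mitotic cells and not by that at mitosis, so the balance of higher and lower genes also reflects that filter. In bulk RNA a larger share of cells that transcribe a gene cannot be told apart from more RNA per cell.

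**Figure D1:**
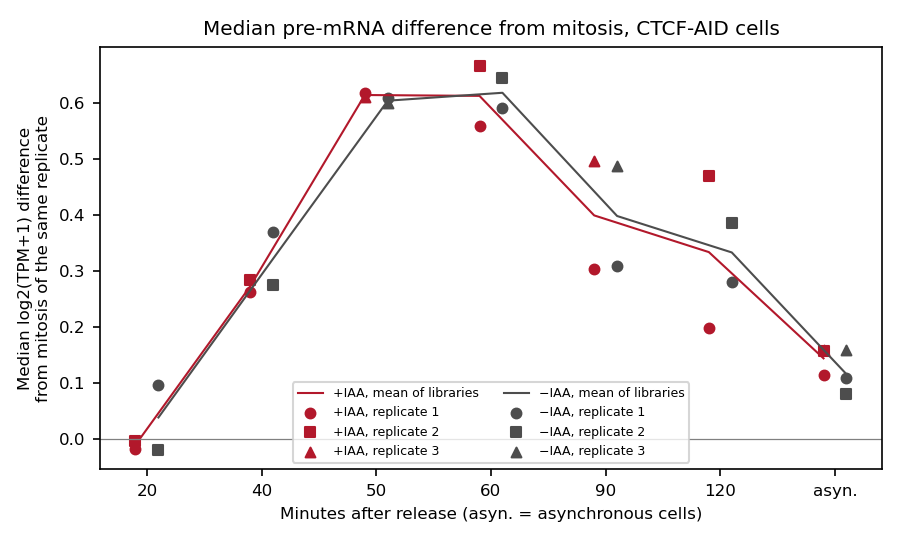
Median over 10237 genes of the log2(TPM + 1) difference from the mitotic library of the same replicate (y axis) at each stage (x axis, minutes after release, and asynchronous cells), with IAA in red and without in grey. Points are single libraries, shaped by replicate, and lines join the means; with IAA the points at 50 and 60 min lie between 0.56 and 0.67, above those of every other stage.

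The time course of the same arm places the burst at these 2 stages. At 20 min the median differences were -0.017 and -0.0026 in replicates 1 and 2, and at 40 min they were 0.26 and 0.28. They had declined to 0.30 and 0.50 at 90 min (replicates 1 and 3) and to 0.20 and 0.47 at 120 min (replicates 1 and 2), and stood at 0.11, 0.16 and 0.16 in asynchronous cells. No library of another stage reached the lowest value of the burst. Of 10237 genes, 3937 (38.5%) had their largest mean difference at 50 min and 3118 (30.5%) at 60 min, against 140 and 208 at the 2 earlier stages, 897 and 996 at the 2 later ones and 941 in asynchronous cells. Compared with the asynchronous library of their replicate, 7489 genes (73.2%) were higher in all 4 burst libraries and 1119 (10.9%) lower, with median differences from 0.45 to 0.51. The unexplained library factor was 1.84 to 1.97 in these asynchronous libraries, against 2.30 to 2.34 at 50 min and 2.27 to 2.46 at 60 min. Its part in this comparison, and in the other values given for asynchronous cells, was not tested. Asynchronous cells were in IAA for 4 h, and the length of treatment and the stage cannot be told apart.

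The 8 genes with the largest mean within-replicate difference, 4 histone, microRNA and RIKEN entries aside, were 1.3 to 11.7 kb long, against a median of 22.5 kb over all genes. Cd68 (chr11:69664213-69666153 on GRCm38), a glycoprotein of lysosomes best known from macrophages, stood at 1.55, 1.27 and 2.64 TPM at mitosis, 23.5 and 31.8 TPM at 50 min, and 13.6 and 14.5 TPM at 60 min, a difference of 2.95 ± 0.12 (SE; adjusted p = 2.9e-11). Its lowest library after release was several times the highest mitotic one, and both 50 min libraries were above both 60 min libraries. Fzd5 (chr1:64730558-64737751), a receptor for Wnt ligands, stood at 2.81, 2.67 and 2.07 TPM at mitosis, 22.7 and 33.2 TPM at 50 min, and 17.2 and 22.2 TPM at 60 min, a difference of 2.84 ± 0.24 (SE; adjusted p = 1.7e-08). Dvl2 (chr11:70000595-70012301), which carries the signal of such receptors into the cell, stood at 1.83, 1.79 and 1.64 TPM at mitosis, 17.7 and 16 TPM at 50 min, and 14.7 and 17.4 TPM at 60 min, a difference of 2.68 ± 0.13 (SE; adjusted p = 6.6e-11). For both Wnt pathway genes the groups did not overlap, and for Dvl2 the libraries within each group were close to each other. Ckb (chr12:111669361-111672338), the brain-type creatine kinase, differed by 2.79 ± 0.13, Cox6b2 (chr7:4751792-4753094), a cytochrome c oxidase subunit, by 2.76 ± 0.12 and Atp6v0b (chr4:117884326-117887333), a subunit of the vacuolar proton pump, by 2.65 ± 0.13. Tmsb10 (chr6:72957347-72958748), which binds actin monomers, differed by 2.67 ± 0.16 and Rps12 (chr10:23785183-23787275), a protein of the small ribosomal subunit, by 2.69 ± 0.18. They come from 5453 genes that rose in all pairs and averaged 2 TPM or more during the burst. The values given are limma estimates, which rank genes slightly differently, and after rescaling their differences ran from 1.89 to 2.17.

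Asynchronous cells held less of most of these genes. Cd68 averaged 1.91 ± 0.651 TPM (SD, n = 3) in asynchronous cells and Dvl2 2.45 ± 0.483 TPM, against 20.9 and 16.5 TPM over the 4 burst libraries. Rps12 was the exception, with 21.5 ± 4.08 TPM in asynchronous cells and 16.6 TPM during the burst. In the plot of 12 gene courses Cd68 is highest at 50 min.

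**Figure D2:**
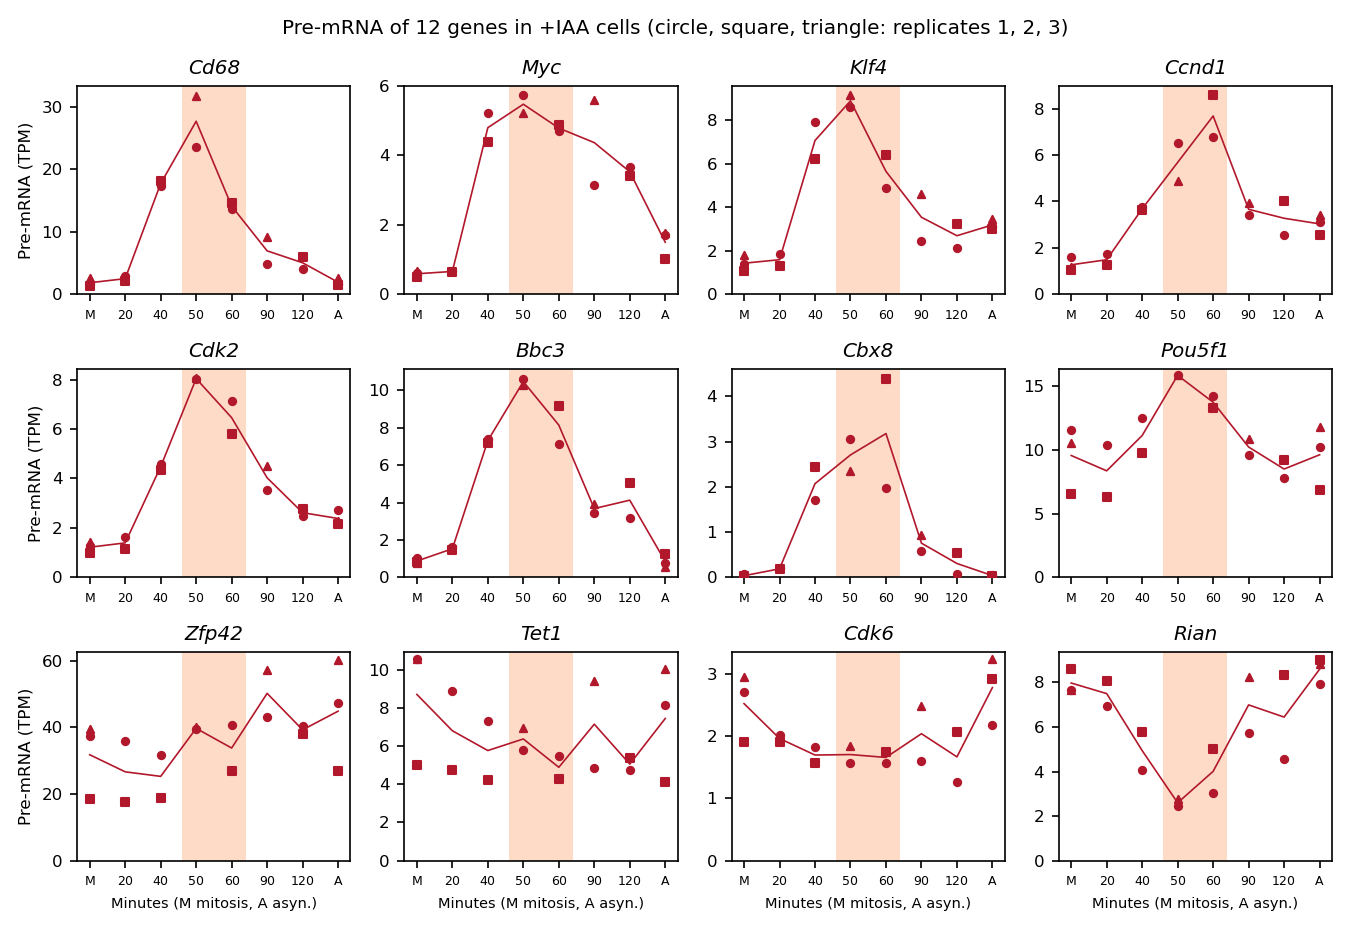
Pre-mRNA in TPM (y axis, from 0) of 12 genes in +IAA cells at mitosis (M), 20 to 120 min after release and in asynchronous cells (A). Points are single libraries (circles, squares and triangles for replicates 1, 2 and 3), lines join the means, and the shaded band marks the 50 and 60 min libraries; Cd68, Myc, Klf4, Ccnd1, Cdk2, Bbc3 and Cbx8 peak in or near the band, while Tet1, Cdk6 and Rian lie below their mean mitotic level there.

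A smaller group of genes had less pre-mRNA at 50 and 60 min than at mitosis. Rian (chr12:109603940-109661716), a long non-coding RNA made from the maternal copy of the imprinted Dlk1-Meg3 region, stood at 7.64, 8.63 and 7.66 TPM at mitosis, 2.43 and 2.76 TPM at 50 min, and 3.02 and 5.0 TPM at 60 min, a difference of -1.04 ± 0.11 (SE; adjusted p = 2.4e-07). Every library after release was below every mitotic one, and the lowest values were those of 50 min. Nedd4 (chr9:72662346-72749852), a ubiquitin ligase, stood at 7.6, 7.52 and 8.67 TPM at mitosis, 3.28 and 4.18 TPM at 50 min, and 2.95 and 3.37 TPM at 60 min, a difference of -0.98 ± 0.090 (SE; adjusted p = 3.9e-08), again without overlap. Triml1 (chr8:43129807-43141486) differed by -0.90 ± 0.14, Pabpc4 (chr4:123262351-123298925), a cytoplasmic poly(A)-binding protein, by -0.88 ± 0.11, Tns3 (chr11:8431652-8664535), a tensin of focal adhesions, by -0.87 ± 0.11 and Adam23 (chr1:63445891-63596276), a membrane protein of the ADAM family, by -0.85 ± 0.094. For Tns3 the groups overlapped in level, since its mitotic library of replicate 2 held 3.85 TPM against 8.09 and 9.28 TPM in replicates 1 and 3, but each library after release was below the mitotic library of its own replicate. By the same mean these 6 were the largest falls of 180 genes that fell in all pairs and averaged 2 TPM or more at mitosis, 2 entries with microRNA-type symbols aside. In asynchronous cells all but Pabpc4 averaged 6.4 TPM or more, and Pabpc4 averaged 1.74 ± 0.192 TPM.

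The size of the burst fell steadily with gene length. Among 10209 genes with a single annotated span, the median difference was 0.97 ± 0.057 (SD, n = 3 replicates) in 1107 genes up to 5 kb, 0.75 ± 0.026 in 2170 genes of 10 to 20 kb, 0.45 ± 0.095 in 1685 genes of 40 to 80 kb and -0.054 ± 0.074 in 446 genes over 160 kb. The order of the 7 length classes was the same in each of the 3 replicates. Genes without introns were not set aside. Of the shortest class 92.4% rose and 1.26% fell, and of the longest 20.4% rose and 33% fell. Genes that rose had a median length of 18.7 kb and genes that fell one of 95.1 kb, and 285 of the 501 that fell (56.9%) were over 80 kb, against 14.3% of all genes. Rescaling to the same total kept the order, from 0.48 in the shortest class to -0.51 in the longest. So did keeping only the 4644 genes with 1 to 4 TPM at mitosis, where the classes had more similar starting levels and the median ran from 1.17 to -0.16.

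The time of the highest median also differed with length. At 40, 50, 60, 90 and 120 min, in this order, genes up to 5 kb had median differences of 0.75, 1.04, 0.89, 0.63 and 0.54. In genes of 80 to 160 kb these were -0.031, 0.11, 0.26, 0.27 and 0.19, and in genes over 160 kb they were -0.11, -0.10, -0.030, 0.11 and 0.14. The longest class was thus under its mitotic level at 50 and 60 min on average, with replicate 2 slightly above it (0.031), and above it at 90 and 120 min, and genes of 80 to 160 kb were at similar medians at 60 and 90 min. Without IAA the length classes were ordered alike, from 0.92 ± 0.11 in the shortest to -0.0046 ± 0.13 in the longest.

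**Figure D3:**
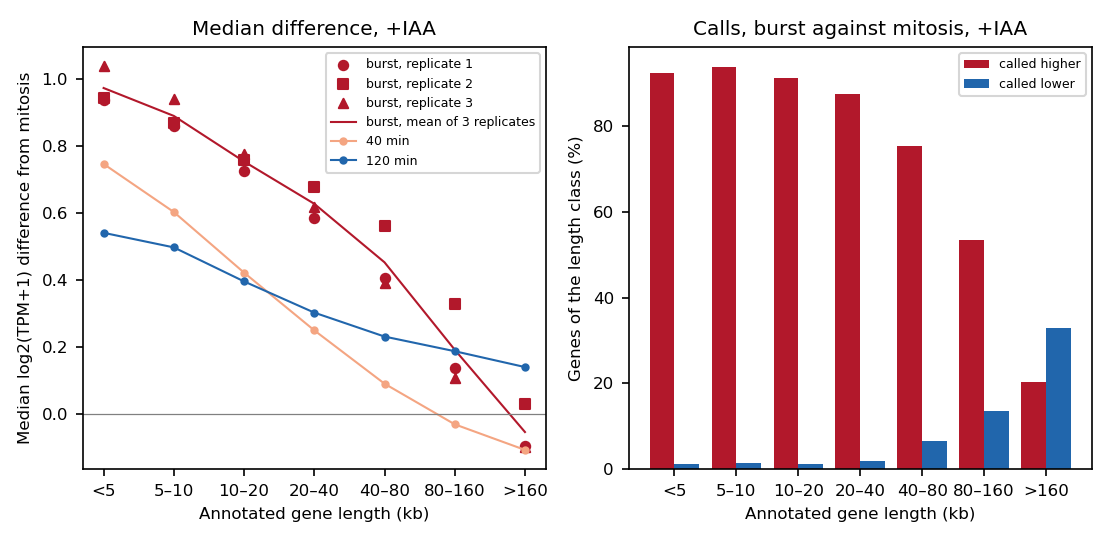
Left, median log2(TPM + 1) difference from mitosis (y axis) in +IAA cells by class of annotated gene length (x axis, kb), as points for each replicate and a line for their mean during the burst, with lines for 40 and 120 min. Right, percentage of genes in each class (y axis, from 0) that rose or fell in the burst; the share that rose drops from 92.4% in the shortest class to 20.4% in the longest.

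Each list is read against all genes, of which 81.5% rose and 4.89% fell, and gene length was not held constant between lists. Pluripotency genes spread widely around the median gene. Pou5f1, which encodes OCT4, stood at 11.6, 6.54 and 10.6 TPM at mitosis, 15.9 and 15.9 TPM at 50 min, and 14.2 and 13.3 TPM at 60 min, a difference of 0.59 ± 0.14 (SE; adjusted p = 0.00084), and Nanog, another core factor, at 5.47, 4.76 and 7.7 TPM at mitosis, 9.89 and 12.5 TPM at 50 min, and 7.26 and 10.2 TPM at 60 min, a difference of 0.71 ± 0.13 (SE; adjusted p = 0.00012). For Pou5f1 every library after release was above every mitotic one, while for Nanog the 60 min library of replicate 1 lay within the mitotic range. Both are close to the median of all genes, and after rescaling to the same total their differences turned to -0.31 and -0.16. Sox2 was not among the genes of the table. Of 17 naive pluripotency factors, 14 rose, 1 fell and 2 did not pass the test, against 81.5% of all genes that rose (median 0.69, or 0.17 after rescaling to the same total). Dppa5a, a KH-domain RNA-binding protein of ES cells and the highest of them, stood at 4.3, 3.19 and 3.36 TPM at mitosis, 22.2 and 21.4 TPM at 50 min, and 18.6 and 13.7 TPM at 60 min, a difference of 2.04 ± 0.13 (SE; adjusted p = 9.2e-10). Klf4, a Krüppel-like factor of the naive state, stood at 1.38, 1.08 and 1.8 TPM at mitosis, 8.61 and 9.16 TPM at 50 min, and 4.88 and 6.4 TPM at 60 min, a difference of 1.77 ± 0.14 (SE; adjusted p = 5.9e-09), and Tbx3, a T-box factor of the same network, differed by 1.08 ± 0.10 (SE; adjusted p = 7.0e-08). For Dppa5a, Klf4 and Tbx3 the levels after release were above all mitotic ones. Esrrb, an orphan nuclear receptor, differed by 0.58 ± 0.12 (SE; adjusted p = 0.00033), which turned to -0.14 after rescaling. Zfp42, known as Rex1, was the most abundant of these genes at mitosis with 37.5, 18.4 and 39.5 TPM and did not pass the test, with a difference of 0.22 ± 0.14 (SE, adjusted p = 0.15). At the same total it turned to -0.73 and passed as lower (limma adjusted p = 2.1e-06). Tdh, the threonine dehydrogenase on which mouse ES cells depend, fell, with a difference of -0.32 ± 0.13 (SE; adjusted p = 0.024), a call that was lost with adjusted p = 0.16 without replicate 3 and 0.15 without the replicate block. Without replicate 2 the differences were 0.42 for Pou5f1, 0.54 for Nanog and 0.11 for Zfp42, and 13 naive factors rose.

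Of the 12 more general ES cell genes, 7 rose, 1 fell and 4 did not pass the test, and their median (0.32, or -0.46 after rescaling to the same total) was the lowest of the 26 functional lists. Mycn was the highest at 1.42 ± 0.18 (SE; adjusted p = 1.6e-06). Tet1, a dioxygenase that oxidises methylated cytosine, was the lowest and fell by 0.51 ± 0.16 (SE; adjusted p = 0.0079), with 10.5, 5.0 and 10.6 TPM at mitosis, 5.78 and 6.96 TPM at 50 min, and 5.49 and 4.28 TPM at 60 min. The mitotic library of replicate 2 was as low as the libraries after release, and the other mitotic libraries were higher. The difference was -0.66 without replicate 2, and adjusted p was 0.13 without the replicate block. Of the 8 measured out of 9 DNA methylation enzymes listed, 6 rose, 1 fell and 1 did not pass the test (median 0.46, or -0.23 after rescaling to the same total). Uhrf1, which guides maintenance methylation, differed by 1.37 ± 0.14 (SE; adjusted p = 1.4e-07), and Dnmt3b, a de novo methyltransferase, by 0.23 ± 0.11 (SE; adjusted p = 0.056), so that it did not pass the test, but it did with an adjusted p of 0.021 over only these 3 stages, 0.036 over all 36 libraries and 0.049 among genes averaging 1 TPM or more, while at the same total the difference turned to -0.58.

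Of the 11 members of the Myc network, 10 rose, 0 fell and 1 did not pass the test (median 1.15, or 0.64 after rescaling to the same total), and 10 were above the median of all genes. Myc stood at 0.617, 0.49 and 0.653 TPM at mitosis, 5.74 and 5.21 TPM at 50 min, and 4.7 and 4.87 TPM at 60 min, a difference of 1.95 ± 0.11 (SE; adjusted p = 3.4e-10), Mycn at 5.3, 4.41 and 2.21 TPM at mitosis, 14 and 10.5 TPM at 50 min, and 9.81 and 14.5 TPM at 60 min, and Max, the partner that both need to bind DNA, differed by 1.01 ± 0.10 (SE; adjusted p = 1.2e-07). For Myc and Mycn the lowest library after release was above the highest mitotic one. Mga, a large repressor that also pairs with Max, was the lowest and did not pass the test, with 0.18 ± 0.097, but did without replicate 1 (adjusted p = 0.046).

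Immediate early genes respond to growth signals without new protein synthesis. All 13 that were measured, out of 24, rose (median 1.24, or 0.72 after rescaling to the same total). Btg1, an antiproliferative gene, was the highest, with 0.766, 1.05 and 1.58 TPM at mitosis, 6.98 and 8.11 TPM at 50 min, and 4.45 and 6.01 TPM at 60 min and a difference of 1.82 ± 0.11 (SE; adjusted p = 4.5e-10). Fos, a subunit of AP-1, stood at 0.17, 0.686 and 0.27 TPM at mitosis, 2.39 and 2.13 TPM at 50 min, and 0.726 and 2.95 TPM at 60 min, a difference of 1.17 ± 0.26 (SE; adjusted p = 0.00059), where the 60 min library of replicate 1 was near the highest mitotic value. At the same total the difference of Fos was 0.72 and did not pass (adjusted p = 0.053). Egr1, a zinc-finger factor, stood at 2.04, 1.89 and 2.41 TPM at mitosis, 3.44 and 5.28 TPM at 50 min, and 1.52 and 4.19 TPM at 60 min, a difference of 0.57 ± 0.19 (SE; adjusted p = 0.009), and here the 60 min library of replicate 1 lay below its own mitotic library, and rescaling to the same total turned the difference to -0.14. The call for Egr1 was lost with adjusted p = 0.051 without replicate 3 and 0.1 without the replicate block. Egr1 averaged 10.5 ± 1.67 TPM (SD, n = 3) in asynchronous cells, above all 4 burst libraries. Of 11 genes of the FGF-ERK pathway and its feedback, 9 rose, 1 fell and 1 did not pass the test, against 81.5% of all genes that rose (median 0.45, or -0.18 after rescaling to the same total). Dusp5, a phosphatase that removes the activating phosphates of ERK, stood at 0.639, 0.735 and 0.698 TPM at mitosis, 5.92 and 4.79 TPM at 50 min, and 3.72 and 6.28 TPM at 60 min and differed by 1.88 ± 0.13 (SE; adjusted p = 1.6e-09). Spry4, a Sprouty inhibitor of the same pathway, fell, with 15.6, 6.59 and 15.4 TPM at mitosis, 8.61 and 8.81 TPM at 50 min, and 7.81 and 5.88 TPM at 60 min and a difference of -0.60 ± 0.16 (SE; adjusted p = 0.0021). The mitotic library of replicate 2 held less Spry4 than the 50 min libraries, but within replicates all 4 pairs went down, and adjusted p was 0.15 without the replicate block.

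On the scale used here, the list of G1 cyclins, CDKs and inhibitors had the largest median of the functional lists. That of p53 pathway genes was close, at 1.59. With the factor of each library removed the p53 list was the higher (1.32 against 1.26), and without IAA the medians were 1.483 and 1.477. The difference between the lists was not tested. Of 12 measured out of 14 G1 cyclins, CDKs and inhibitors, 11 rose, 1 fell and 0 did not pass the test (median 1.64, or 0.97 after rescaling to the same total). Ccnd1, cyclin D1, stood at 1.62, 1.03 and 1.15 TPM at mitosis, 6.5 and 4.86 TPM at 50 min, and 6.76 and 8.59 TPM at 60 min, a difference of 1.74 ± 0.14 (SE; adjusted p = 8.7e-09), and was higher at 60 min than at 50 min within replicate 1. Cdk2, the kinase that partners cyclin E, stood at 1.26, 0.98 and 1.42 TPM at mitosis, 8.01 and 8.06 TPM at 50 min, and 7.13 and 5.79 TPM at 60 min, a difference of 1.88 ± 0.091 (SE; adjusted p = 7.3e-11). Ccne1, cyclin E1, stood at 4.53, 3.09 and 4.39 TPM at mitosis, 14.8 and 13 TPM at 50 min, and 13.6 and 10.8 TPM at 60 min, a difference of 1.47 ± 0.12 (SE; adjusted p = 1.3e-08). None of these 3 overlapped between mitosis and the burst, but the share of all genes without overlap is not given here. Cdkn1c, an imprinted CDK inhibitor, was the highest at 2.34 ± 0.16 (SE; adjusted p = 1.2e-09). Cdk6, a kinase that partners D-type cyclins and a gene of 189.5 kb, was the one member that fell, with 2.7, 1.91 and 2.95 TPM at mitosis, 1.56 and 1.85 TPM at 50 min, and 1.57 and 1.75 TPM at 60 min and a difference of -0.36 ± 0.11 (SE; adjusted p = 0.0062), with adjusted p of 0.052 without replicate 1 and 0.058 without replicate 3.

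E2F and retinoblastoma family genes, which gate entry into S phase, had a median near that of all genes. Of 13, 11 rose, 1 fell and 1 did not pass the test (median 0.58, or -0.19 after rescaling to the same total). E2f8, a repressive E2F, was the highest at 1.78 ± 0.11 (SE; adjusted p = 4.4e-10), and Rbl1, which encodes p107, was the lowest at -0.25 ± 0.050 (SE; adjusted p = 0.00018). E2f1 differed by 0.76 ± 0.088 (SE; adjusted p = 6.0e-07), a value that rescaling turned to -0.073, and Rb1 by 0.67 ± 0.081 (SE; adjusted p = 1.0e-06). Replication licensing genes had a larger median. Of 18, 16 rose, 0 fell and 2 did not pass the test (median 1.13, or 0.26 after rescaling to the same total), and 14 were above the median of all genes. Cdc6, which loads the replicative helicase with the origin recognition complex, stood at 2.62, 1.76 and 2.93 TPM at mitosis, 14 and 13.6 TPM at 50 min, and 12.3 and 10.4 TPM at 60 min, a difference of 1.99 ± 0.11 (SE; adjusted p = 2.6e-10). Mcm2 and Mcm5, subunits of that helicase, differed by 1.04 ± 0.12 (SE; adjusted p = 4.3e-07) and 1.08 ± 0.12 (SE; adjusted p = 5.9e-07), and Orc5, a subunit of the origin recognition complex, by 0.049 ± 0.091, which did not pass the test. In asynchronous cells the licensing genes had a median of -0.064 relative to mitosis.

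Genes that run mitosis had a median near that of all genes. Of 21 mitotic cyclins and spindle checkpoint genes, 20 rose, 1 fell and 0 did not pass the test, against 81.5% of all genes that rose (median 0.65, or -0.092 after rescaling to the same total). At the same total 7 were higher and 9 lower. Ccna2, cyclin A2, was the highest at 1.47 ± 0.099 (SE; adjusted p = 1.3e-09). Cdc20, an activator of the anaphase-promoting complex, stood at 4.32, 3.75 and 5.18 TPM at mitosis, 9.52 and 10.4 TPM at 50 min, and 7.33 and 7.39 TPM at 60 min, a difference of 0.84 ± 0.081 (SE; adjusted p = 6.8e-08), and Ccnb1, cyclin B1, at 13.2, 9.56 and 12.4 TPM at mitosis, 19 and 19.3 TPM at 50 min, and 13 and 11.3 TPM at 60 min, a difference of 0.34 ± 0.099 (SE; adjusted p = 0.0046). Cdc20 did not overlap between the groups, whereas the 60 min libraries of Ccnb1 lay within the mitotic range and its 50 min libraries above it, and without replicate 3 its adjusted p was 0.059. Rescaling turned the differences to -0.0035 for Cdc20 and -0.58 for Ccnb1. Mad1l1, a spindle checkpoint gene of 313 kb, fell, with a difference of -0.47 ± 0.085 (SE; adjusted p = 8.6e-05). For the whole list the median went from 0.76 to 0.52 between 50 and 60 min, and was 0.013 at 120 min, where the median of all genes was 0.20 to 0.47 in single libraries.

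**Figure D4:**
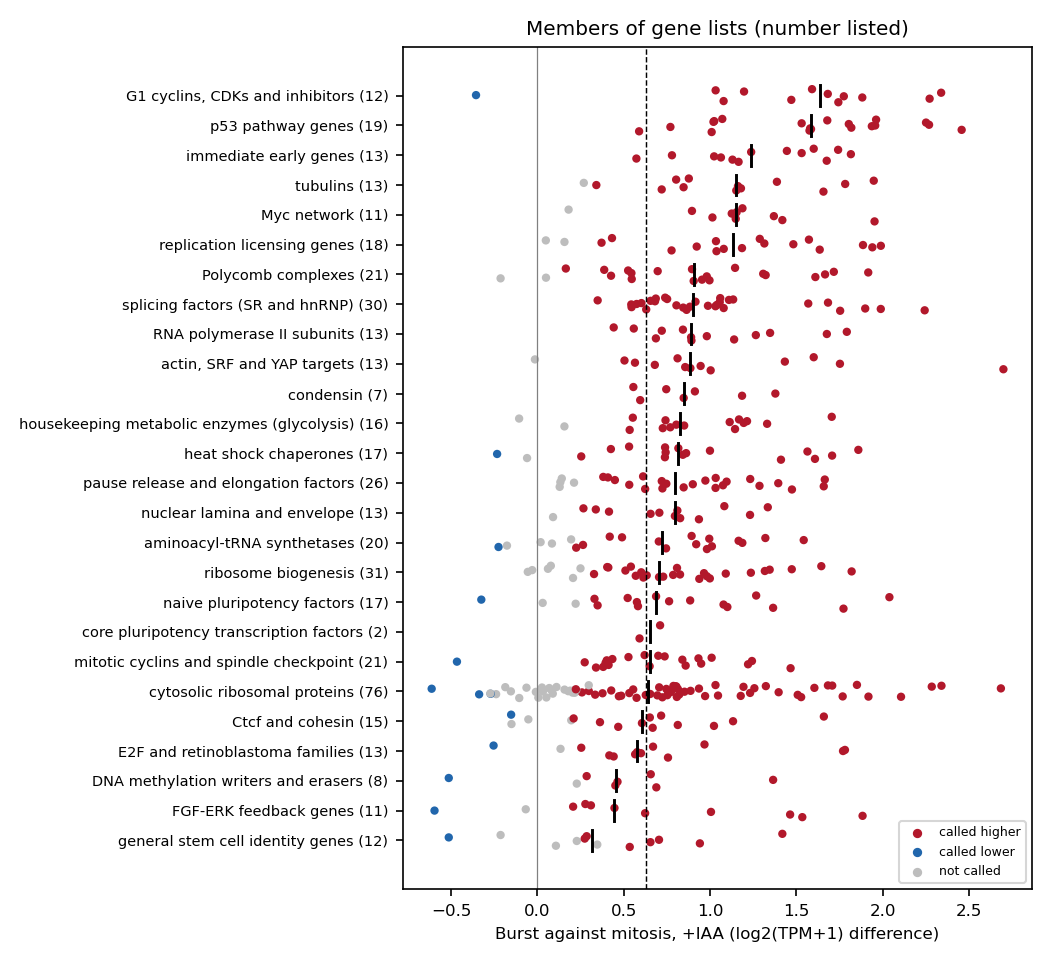
Burst against mitosis in +IAA cells (x axis, log2(TPM + 1) difference) for the listed members of each gene list (y axis, number listed in brackets), with red points for genes that rose, blue for genes that fell and grey for the rest. Black bars mark list medians and the dashed line the median of all genes, 0.63. On this scale the list of G1 cyclins, CDKs and inhibitors has the highest median and that of general stem cell identity genes the lowest. With the factor of each library removed, the p53 pathway list is above the G1 list (1.32 against 1.26).

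Ctcf itself and cohesin, the ring complex that CTCF halts, had a median near that of all genes. Of 15 genes, 11 rose, 1 fell and 3 did not pass the test (median 0.61, or -0.21 after rescaling to the same total). Ctcf differed by 0.67 ± 0.10 (SE; adjusted p = 1.2e-05), Rad21, the subunit that closes the ring, by 0.81 ± 0.10 (SE; adjusted p = 1.1e-06), and the 2 SMC subunits Smc1a and Smc3 by 0.47 ± 0.083 (SE; adjusted p = 6.2e-05) and 1.02 ± 0.088 (SE; adjusted p = 1.8e-08). After rescaling the differences of Ctcf, Rad21 and Smc1a turned to -0.21, -0.0076 and -0.25. Esco2, an acetyltransferase that makes cohesin cohesive in S phase, was the highest at 1.66 ± 0.12 (SE; adjusted p = 2.1e-09), and Hdac8, which removes that mark, fell, with -0.15 ± 0.053 (SE; adjusted p = 0.014) and adjusted p of 0.069 without replicate 1, 0.085 without replicate 3 and 0.051 without the replicate block. All 7 condensin genes listed rose (median 0.85, or 0.013 after rescaling to the same total), Ncapg most (1.38 ± 0.077) and Ncaph2 least (0.56 ± 0.10). At the same total 3 of them were higher and 2 lower, and Ncaph2 turned to -0.25.

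Transcription and splicing genes were described by 3 lists. All 13 RNA polymerase II subunits rose (median 0.89, or 0.21 after rescaling to the same total), from Polr2m at 0.44 ± 0.088 to Polr2i at 1.79 ± 0.14. Polr2a, the catalytic subunit, stood at 10.6, 7.7 and 13.1 TPM at mitosis, 19.1 and 25.8 TPM at 50 min, and 16.5 and 17.3 TPM at 60 min, a difference of 0.89 ± 0.13 (SE; adjusted p = 9.6e-06), without overlap, and at -0.024 after rescaling. Of 26 measured out of 27 pause release and elongation factors, 22 rose, 0 fell and 4 did not pass the test, against 81.5% of all genes that rose (median 0.80, or 0.15 after rescaling to the same total). Cdk9, the kinase of P-TEFb, stood at 3.51, 2.72 and 3.85 TPM at mitosis, 12 and 11.9 TPM at 50 min, and 10.2 and 10.2 TPM at 60 min, a difference of 1.47 ± 0.097 (SE; adjusted p = 1.0e-09), with narrow groups far apart. Paf1, which names an elongation complex, differed by 1.67 ± 0.094 (SE; adjusted p = 2.5e-10). All 30 measured out of 34 SR and hnRNP splicing factors rose (median 0.90, or 0.023 after rescaling to the same total), Srsf2 most, with 11.2, 14.1 and 8.2 TPM at mitosis, 62.4 and 55.8 TPM at 50 min, and 57.3 and 53.2 TPM at 60 min, and Hnrnpr least at 0.35 ± 0.073. At the same total 10 of them were higher and 9 lower, and Hnrnpr turned to -0.43.

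Of 21 measured out of 22 Polycomb genes, which keep developmental genes silent, 19 rose, 0 fell and 2 did not pass the test (median 0.91, or 0.10 after rescaling to the same total). Cbx8, a chromodomain subunit of PRC1, was nearly silent in mitosis and stood at 0.0639, 0.0245 and 0.0225 TPM at mitosis, 3.05 and 2.36 TPM at 50 min, and 1.97 and 4.38 TPM at 60 min, a difference of 1.92. Within this arm Cbx8 could enter the table only through libraries after release, so its values are a description and no test is drawn from them. It was close to 0 again in asynchronous cells, with 0.0384 ± 0.0199 TPM (SD, n = 3), so that all 4 burst libraries were above all 6 of the other libraries named. Ezh2, the methyltransferase of PRC2, differed by 1.0 ± 0.12 (SE; adjusted p = 9.9e-07), and Jarid2, a PRC2 cofactor and a gene of 192 kb, by -0.21 ± 0.14, which did not pass the test but did without replicate 2 (-0.38, adjusted p = 0.0053).

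Without regard to gene length, genes of protein synthesis had medians near that of all genes, of which 81.5% rose. The cytosolic ribosomal protein genes had a median length of 3.27 kb. Genes up to 5 kb had a median of 0.97, and 92.4% of them rose. Of 76 measured out of 79 cytosolic ribosomal protein genes, 50 rose, 3 fell and 23 did not pass the test (median 0.64, or -0.22 after rescaling to the same total), from Rps10 at -0.61 ± 0.13 to Rps12 at 2.69 ± 0.18. At the same total 19 of these genes were higher and 41 lower. These genes have many processed copies in the genome, and how reads were shared with them was not tested. Of 31 measured out of 34 ribosome biogenesis genes, 25 rose, 0 fell and 6 did not pass the test (median 0.70, or -0.12 after rescaling to the same total). After that rescaling 7 were higher and 16 lower. Gnl3, nucleostemin, was the highest at 1.82 ± 0.13 (SE; adjusted p = 3.5e-09), Ncl, nucleolin, differed by 0.94 ± 0.13 (SE; adjusted p = 6.7e-06) but by 0.007 at the same total (adjusted p = 0.94), and Rrp1b was the lowest at -0.055 ± 0.13. Of 20 aminoacyl-tRNA synthetases, 15 rose, 1 fell and 4 did not pass the test (median 0.72, or -0.050 after rescaling to the same total), with Qars at 1.54 ± 0.089 and Eprs, which fell, at -0.22 ± 0.084, with adjusted p of 0.093 without replicate 1, 0.066 without replicate 3 and 0.12 without the replicate block.

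All 19 measured out of 22 p53 pathway genes listed rose (median 1.59, or 0.88 after rescaling to the same total), and 18 were above the median of all genes. Bbc3, which encodes the pro-apoptotic PUMA, stood at 1.02, 0.809 and 0.788 TPM at mitosis, 10.6 and 10.3 TPM at 50 min, and 7.13 and 9.16 TPM at 60 min, a difference of 2.46 ± 0.12 (SE; adjusted p = 7.3e-11). Its lowest library after release was far above the highest mitotic one, and it averaged 0.851 ± 0.361 TPM (SD, n = 3) in asynchronous cells. Mdm4, an inhibitor of p53, was the lowest of the list at 0.59 ± 0.12, or -0.33 after rescaling. Relative to mitosis the median of the list was 1.30 at 40 min and 0.97 at 120 min, and -0.19 in asynchronous cells. Of 17 measured out of 19 heat shock chaperones, 15 rose, 1 fell and 1 did not pass the test (median 0.82, or -0.056 after rescaling to the same total). Dnajb1, an HSP40 co-chaperone, was the highest at 1.86 ± 0.13 and Hspd1, the mitochondrial HSP60, the lowest at -0.23 ± 0.10, with adjusted p of 0.091 without replicate 1, 0.17 without replicate 3 and 0.055 without the replicate block.

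Tubulins, actin-related, nuclear envelope and glycolytic genes are to be read against the 81.5% of all genes that rose. Of 13 measured out of 16 tubulin genes, 12 rose, 0 fell and 1 did not pass the test (median 1.15, or 0.37 after rescaling to the same total), with Tubg1, the γ-tubulin that nucleates microtubules, at 1.95 ± 0.076 and Tubb5, an abundant β-tubulin, at 0.27 ± 0.13, which did not pass the test but did without replicate 1 (adjusted p = 0.025). Tubb5 also passed over only mitosis, 50 and 60 min (limma adjusted p = 0.049). At the same total it turned to -0.66 and passed as lower. Of 13 measured out of 20 actin, SRF and YAP target genes, 12 rose, 0 fell and 1 did not pass the test (median 0.89, or 0.12 after rescaling to the same total). Actg1, a cytoplasmic actin, stood at 4.11, 6.05 and 1.82 TPM at mitosis, 33.9 and 20.0 TPM at 50 min, and 38.3 and 30.8 TPM at 60 min, a difference of 2.70 ± 0.20 (SE; adjusted p = 4.6e-09), and kept a similar level in asynchronous cells, 33 ± 11.7 TPM (SD, n = 3). Fhl2 was the lowest at -0.014 ± 0.053. Of 13 measured out of 15 lamina and envelope genes, 12 rose, 0 fell and 1 did not pass the test (median 0.80, or -0.036 after rescaling to the same total), from Lmnb2, a lamin, at 0.091 ± 0.087 to Tor1aip1, a protein of the inner nuclear membrane, at 1.33 ± 0.077. Of 16 measured out of 17 glycolytic enzymes, 14 rose, 0 fell and 2 did not pass the test (median 0.83, or 0.28 after rescaling to the same total), with Ldhb, a lactate dehydrogenase, at 1.71 ± 0.086 and Pkm, pyruvate kinase, at -0.11 ± 0.11.

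Both time points carried the burst. At 50 min 7931 genes rose and 475 fell (77.5% and 4.64% of those tested), and at 60 min 8255 rose and 389 fell (80.6% and 3.8%). The genes that fell numbered 235 at 50 min without replicate 3 and 227 without the replicate block, and 171 at 60 min without replicate 1. With all libraries, 7716 rose and 340 fell at both, in comparisons that share the mitotic libraries. A direct test of 60 against 50 min found 3 genes higher (0.0293%) and 109 lower (1.06%) at 60 min. The 109 were short, with a median length of 8.38 kb, had a median difference from mitosis of 1.26 at 50 min and 0.73 at 60 min, and 106 of them were still above mitosis at 60 min by the test. Replicate 1 is the one replicate with both stages. Without replicate 1 limma called 0 genes in either direction, with 1966 at an unadjusted p below 0.05, in a fit with 1 residual degree of freedom against 8, and without the replicate block it called 1 higher and 22 lower. At the same total it called 321 higher and 196 lower, so the balance turned, and with a pseudocount of 0.1 it called 1 and 3.

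The genes at either end, named after their values were seen, were Nrn1l and Map2k7. Nrn1l (chr8:105893567-105895023), a relative of neuritin, was listed at 0, 0 and 0 TPM at mitosis, 1.15 and 2.08 TPM at 50 min, and 0 and 0 TPM at 60 min, and at 0 at 90 and 120 min and in asynchronous cells. Its difference between 60 and 50 min was -1.33, and the transcript was seen only at 40 and 50 min in +IAA cells. Within this arm Nrn1l could enter the table only through those stages. The values are therefore a description, and no test is drawn from them. Map2k7 (chr8:4238740-4247897), a kinase that activates JNK, stood at 2.13, 1.27 and 2.41 TPM at mitosis, 0.436 and 0.608 TPM at 50 min, and 2.29 and 2.29 TPM at 60 min, and its difference between 60 and 50 min was 1.33 ± 0.16 (SE; adjusted p = 0.0018). It was lowest at 50 min, back at the mitotic level at 60 min, and reached 4.29 and 5.29 TPM at 90 min.

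The median burst with IAA differed from that without by less than the spread between replicates. Without IAA the median difference over genes was 0.60, 0.64 and 0.60 in replicates 1, 2 and 3, or 0.62 ± 0.026 (SD, n = 3), and the difference between the arms was 0.0098 ± 0.012 (SD, n = 3 replicates). An exact two-sided sign-flip test over 3 replicates cannot go below p = 0.25 and so could not show a difference here. In the fit of all 36 libraries 8651 genes rose (84.5%) and 421 fell (4.11%) without IAA, and 8436 rose and 538 fell with it. Across the 10237 genes, which are not independent, the mean within-replicate bursts of the arms correlated with r = 0.98. The quartiles of the difference between the arms were -0.051 and 0.070, and 47 genes differed by more than 0.5 in either direction.

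The test of the difference itself, the burst with IAA minus the burst without, found 8 genes with a larger burst in CTCF-depleted cells (0.0781% of those tested) and 30 with a smaller one (0.293%) at an adjusted p below 0.1, with 296 genes at an unadjusted p below 0.05. Without replicate 1, a fit that leaves 3 residual degrees of freedom against 18 with all replicates, limma called 0 genes, with 378 at an unadjusted p below 0.05. The test called 4 higher and 16 lower without replicate 2, 4 higher and 7 lower without replicate 3, and 1 higher and 2 lower without the replicate block. None of the listed members of the functional gene lists was among the 38. With 0.0781% and 0.293% of all genes called, an absence from lists of this size says little about their members. +IAA cells differ from −IAA cells by auxin as well as by the loss of CTCF, and the 2 cannot be told apart.

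For the 30 genes with a smaller burst, the median burst was -0.083 with IAA and 0.47 without, 27 of them rose in −IAA cells, against 84.5% of all genes, and 11 fell and 7 rose in +IAA cells, where 4.89% of all genes fell and 81.5% rose. These genes were chosen by the difference between the same bursts, so their medians and counts are a description and no test is drawn from them. Tex261 (chr6:83768885-83775813) stood at 1.34, 1.03 and 1.37 TPM at mitosis, 1.54 and 1.17 TPM at 50 min, and 1.34 and 1.33 TPM at 60 min with IAA and at 1.78, 1.12 and 1.66 TPM at mitosis, 4.27 and 4.08 TPM at 50 min, and 5.4 and 3.41 TPM at 60 min without. With IAA the levels before and after release overlapped, and without it all libraries after release were above all mitotic ones, so that the difference between the arms was -1.0 ± 0.12 (SE; adjusted p = 9.0e-05). Nle1 (chr11:82900768-82908411), a ribosome assembly factor known as Notchless, stood at 4.05, 3.41 and 4.28 TPM at mitosis, 3.01 and 2.52 TPM at 50 min, and 2.88 and 2.56 TPM at 60 min with IAA and at 4.85, 3.71 and 4.89 TPM at mitosis, 7.12 and 6.84 TPM at 50 min, and 8.03 and 6.6 TPM at 60 min without, a difference between the arms of -0.97 ± 0.14 (SE; adjusted p = 0.00035). Its pre-mRNA went down in one arm and up in the other. Rab12 (chr17:66494512-66519729), a small GTPase of membrane traffic, stood at 1.81, 1.32 and 2.14 TPM at mitosis, 1.35 and 1.57 TPM at 50 min, and 1.43 and 1.35 TPM at 60 min with IAA and at 1.76, 1.76 and 2.43 TPM at mitosis, 3.27 and 3.8 TPM at 50 min, and 3.71 and 3.31 TPM at 60 min without, a difference between the arms of -0.78 ± 0.10 (SE; adjusted p = 0.00035). Csnk2a2 (chr8:95446096-95490039), a catalytic subunit of casein kinase 2, fell with IAA, from 6.98 ± 0.927 TPM (SD, n = 3) at mitosis to 3.66 TPM over the 4 burst libraries, and went from 7.77 ± 0.851 to 7.48 TPM without it. Its difference between the arms was -0.72 ± 0.13 (SE; adjusted p = 0.0064).

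The same 30 genes were also lower with IAA in asynchronous cells, where 30 of 30 had a negative difference between the arms (median -0.56), and 29 were slightly lower already at mitosis (median -0.094). The share of all genes lower with IAA at these stages is not given here, so these counts have no background to be read against. The mitotic libraries enter the test that chose these genes, so the mitotic values are a description, while the asynchronous libraries enter it only through the shared estimates of replicate and spread.

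For the 8 genes with a larger burst the median was 1.64 with IAA and 0.97 without, and all 8 rose in both arms, as 81.5% of all genes did with IAA and 84.5% without. Here too the genes were chosen by the same bursts, so these values are a description. Vps37d (chr5:135072900-135078266), a subunit of the ESCRT-I sorting complex, stood at 0.255, 0.245 and 0.248 TPM at mitosis, 3.14 and 3.53 TPM at 50 min, and 3.36 and 3.72 TPM at 60 min with IAA and at 0.13, 0.22 and 0.388 TPM at mitosis, 0.968 and 1.61 TPM at 50 min, and 1.15 and 1.56 TPM at 60 min without. Mitotic levels were alike, and every +IAA library after release was above every −IAA library, with a difference between the arms of 0.93 ± 0.095 (SE; adjusted p = 8.3e-06). Mrps16 (chr14:20389304-20393634), a protein of the mitochondrial ribosome, stood at 0.745, 0.515 and 0.788 TPM at mitosis, 6.01 and 6.61 TPM at 50 min, and 5.97 and 5.32 TPM at 60 min with IAA and at 0.783, 0.561 and 0.621 TPM at mitosis, 3.11 and 3.25 TPM at 50 min, and 3.26 and 2.34 TPM at 60 min without, a difference between the arms of 0.79 ± 0.11 (SE; adjusted p = 0.00035). Lsm11 (chr11:45928269-45944935), a protein of the U7 particle that processes histone mRNA, averaged 6.17 TPM in the burst with IAA and 3.01 TPM without, a difference between the arms of 0.67 ± 0.12 (SE; adjusted p = 0.0089). Vgf (chr5:137026392-137033351), a precursor of neuropeptides, averaged 4.26 and 2.29 TPM, a difference between the arms of 0.64 ± 0.15 (SE; adjusted p = 0.066). In asynchronous cells all 8 were also higher with IAA, with a median of 0.46, but the share of all genes higher there is not given here.

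Over 9 other settings of the analysis the 4 genes with the largest difference in each direction kept the sign of their difference, with adjusted p from 3.7e-08 to 1. Vps37d and Nle1 passed in 8 of 9, Tex261 and Rab12 in 7, Mrps16 and Csnk2a2 in 6, Lsm11 in 5 and Vgf in 4. Without replicate 1 none of these genes passed, and their differences ran from -1.0 to -0.59 for the smaller bursts and from 0.57 to 0.90 for the larger ones.

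**Figure D5:**
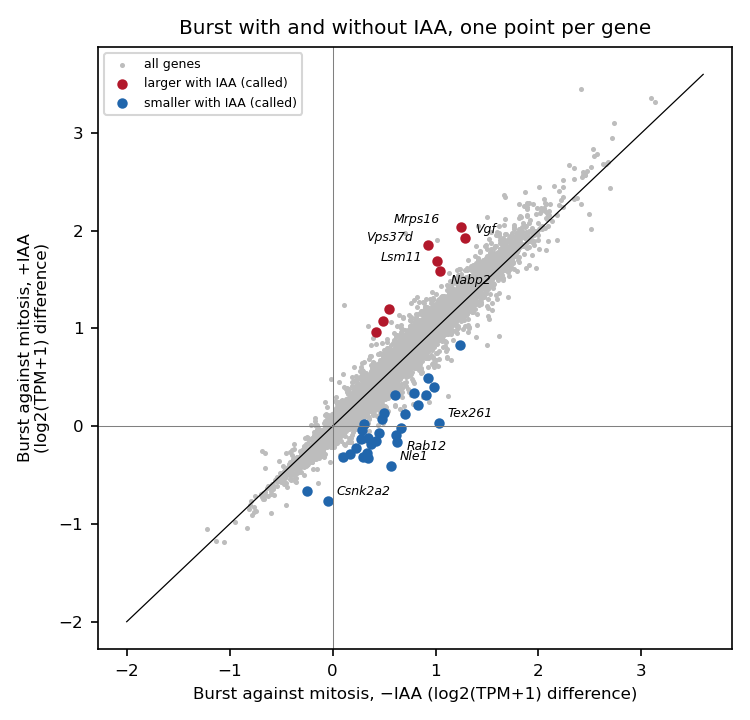
Burst against mitosis with IAA (y axis) and without IAA (x axis) as log2(TPM + 1) differences, one grey point per gene and the line of equal values in black. Red and blue points are the 8 genes with a larger and the 30 with a smaller burst with IAA (adjusted p below 0.1), and 9 of them are named; most genes lie along the line.

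The promoters of these genes were searched for the CTCF core motif, a pattern of 12 letters taken here by its name, on both strands from 250 bases before to 50 bases after each annotated start. Sequences are those of RefSeq on GRCm38.p6, which had promoters for 8199 of the 10237 genes. Of all 10432 promoters of genes in the table, 70 (0.671%) held an exact match, which is 66 of 8199 genes (0.805%). Of the 7 genes with a larger burst and a promoter in the set, 3 held one (Vps37d, Lsm11 and Nabp2, a single-stranded DNA-binding protein that was named after its values were seen), and of the 25 with a smaller burst 0 did. With 1 mismatch allowed the shares were 5.34% of promoters, 6.46% of genes, 3 of 7 genes with a larger and 8 of 25 with a smaller burst. Several genes have more than 1 promoter in the set, and no match says only that these letters are not in the window. The matches began 88, 103 and 183 bases before the start of Vps37d, Lsm11 and Nabp2, the last at 1 of 3 annotated starts. A match is a description of the letters and not a bound site. The 250 bases before each start are given 5′ to 3′ along the gene, with the match in capitals, for the 3 genes whose larger burst with IAA goes with a match:
Vps37d promoter, chr5:135078267-135078516, minus strand: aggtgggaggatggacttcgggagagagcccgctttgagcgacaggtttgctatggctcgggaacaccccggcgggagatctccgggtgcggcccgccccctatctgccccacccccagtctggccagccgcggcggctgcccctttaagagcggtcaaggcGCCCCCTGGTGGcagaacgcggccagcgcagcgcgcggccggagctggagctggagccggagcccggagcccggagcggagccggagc
Lsm11 promoter, chr11:45944936-45945185, minus strand: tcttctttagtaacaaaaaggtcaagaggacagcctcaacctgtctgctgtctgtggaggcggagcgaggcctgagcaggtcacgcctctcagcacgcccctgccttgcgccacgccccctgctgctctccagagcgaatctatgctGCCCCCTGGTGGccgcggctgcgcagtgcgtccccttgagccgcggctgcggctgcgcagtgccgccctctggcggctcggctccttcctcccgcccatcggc
Nabp2 promoter, chr10:128409851-128410100, minus strand: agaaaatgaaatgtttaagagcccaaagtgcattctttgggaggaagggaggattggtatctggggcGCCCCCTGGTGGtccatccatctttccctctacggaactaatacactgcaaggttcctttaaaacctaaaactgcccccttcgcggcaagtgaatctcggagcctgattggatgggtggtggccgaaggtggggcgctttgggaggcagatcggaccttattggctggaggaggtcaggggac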

How the data were processed

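RNA was measured in the 36 CTCF-AID libraries, of which 7 are described. According to the study's methods and the submitters' processing notes, the authors aligned reads to mm10 with STAR, ran RSEM on Gencode vM12 to which they had added an unspliced isoform of each gene, kept genes averaging above 0.5 TPM in asynchronous or at least 2 post-mitotic samples and deposited the TPM of that isoform. Each library's low values are whole multiples of 0.01 times a library factor (1.84 to 2.8) that the sources used here do not explain. TPM hold no counts, so depth and counting error are unknown. Headers of the asynchronous columns are garbled but name arm and replicate.

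limma 3.58.1 (lmFit, eBayes with trend, R 4.3.3) was fitted to log2(TPM + 1) of the 18 +IAA libraries, with stage and replicate as terms, and to all 36 for the difference between arms. The burst is the mean of the 50 and 60 min coefficients minus mitosis, with Benjamini-Hochberg adjustment over all genes (thresholds 0.05, and 0.1 between arms). The test was run on simulated data first. The replicate block follows the within-replicate fold changes of the study. Deviations from stage means correlated above 0.1 in 44 of 49 pairs of same-numbered libraries of different stages (median r 0.48, lowest 0.055), which are not independent, since centring mirrors the deviations of stages with 2 libraries. At most 0.313% of values were identical between libraries. Replicates are stated to be independent. In the main fits, p-values measure the spread left after the stage and replicate terms, pooled over all stages, and not the spread between replicates. With IAA the fit left 8 residual degrees of freedom, and limma added 7.46 from the spread of all genes. The 50 and 60 min stages have 2 libraries each.

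Named genes are the 8 largest rises, the 6 largest falls, the 4 largest differences between arms in each direction, genes chosen by name (of 33, 29 were in the table) and the extremes of each list. Symbols that begin with Gm, Mir, Snor or Hist, or end in Rik, were not named in the first 3. 1 of these genes is not reported here. Members, lists and rules were chosen with earlier results of these data known. Lengths come from Gencode vM21. Figures used matplotlib 3.10.9. Another series of libraries, from CCNA-GFP cells, was not used here.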

Additional observations from a re-analysis of the deposited data

Results flagged for a closer look

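By the test of the difference itself the burst differed between +IAA and −IAA cells for 38 genes, and the 4 with the largest difference in each direction are given here. The burst was larger with IAA for Vps37d (0.93), Mrps16 (0.79), Lsm11 (0.67) and Vgf (0.64), and smaller for Tex261 (-1.0), Nle1 (-0.97), Rab12 (-0.78) and Csnk2a2 (-0.72), as log2(TPM + 1) differences between the arms. Without replicate 1, with 3 residual degrees of freedom, none of the 8 passed (adjusted p from limma of 0.17 to 1).

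The level at 60 min differed from that at 50 min within +IAA cells most for Nrn1l (-1.33) and Map2k7 (1.33). Nrn1l was listed at 0 in both 60 min libraries, and Map2k7 was lower in both 50 min libraries than in any library at mitosis or 60 min.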

How the results depend on the processing

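With every library at the same total, the burst counted 4427 genes higher and 3667 lower, 50 min against mitosis 4102 and 3587, 60 min against mitosis 4059 and 3300, 60 against 50 min 321 and 196, and 54 genes had a smaller burst with IAA. The median burst was 0.051 under it, 0.39 with the library factor removed, 0.99 with a pseudocount of 0.1 and 0.72 over 7500 genes averaging 1 TPM or more. Under the same total the difference changed sign for Tex261 (-0.52), Pou5f1 (-0.31), Nanog (-0.16), Esrrb (-0.14), Zfp42 (-0.73), Egr1 (-0.14), E2f1 (-0.073), Ccnb1 (-0.58), Cdc20 (-0.0035), Ctcf (-0.21), Rad21 (-0.0076), Smc1a (-0.25), Polr2a (-0.024), Dnmt3b (-0.58), Mga (-0.61), Orc5 (-0.77), Ncaph2 (-0.25), Polr2m (-0.37), Mdm4 (-0.33), Tubb5 (-0.66), Lmnb2 (-0.61), Hnrnpr (-0.43) and Lin28a (-0.74), as the sum of each library was fixed by construction. Fos and Ncl kept their sign but no longer passed, and Rab12, Jarid2, Rrp1b, Fhl2 and Pkm, negative before, newly passed with a negative difference. Genes that changed sign and newly passed as lower included Tex261, Zfp42, Dnmt3b, Mga, Orc5, Tubb5 and Lmnb2. Among genes that had risen, Pou5f1, Ccnb1, Ctcf, Smc1a, Ncaph2, Polr2m, Mdm4 and Hnrnpr passed as lower at the same total, so their calls were reversed. No call of a named gene changed direction under another setting that was run.

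Without the replicate block the burst and 50 min counted 308 and 227 genes lower, 60 against 50 min 1 higher and 22 lower, and the arms 1 higher and 2 lower, and 7 of 106 named genes no longer passed (Egr1, Tdh, Tet1, Spry4, Hdac8, Eprs and Hspd1). With genes averaging 1 TPM or more, fewer genes were tested, and the counts lower were 317 (burst), 315 (50 min), 244 (60 min), 43 (60 against 50 min, with 1 higher) and 18 (between arms). For 60 against 50 min, 24 genes were higher and 384 lower with the factor removed, 1 and 3 with a pseudocount of 0.1, 7 lower with only the 7 libraries, and 99 and 307 with all 36. Between arms a pseudocount of 0.1 gave 5 higher. The cause of these shifts was not tested.

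Leaving out 1 replicate at a time gave 235 to 525 genes lower at 50 min, 171 to 354 lower at 60 min, 0 to 13 higher and 0 to 254 lower at 60 against 50 min, and 0 to 4 higher and 0 to 16 lower between arms. The zeros are those without replicate 1, where 1 library remains at 50 and at 60 min and is assumed to vary like the other stages. Depth is unknown, so the precision of low values could not be judged.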

Other observations

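The burst also varied with the make-up of the promoter. By the number of CG dinucleotides in the 300 bases around the first RefSeq start, the median burst of +IAA cells was 0.40 ± 0.027 (SD, n = 3 replicates) in 520 genes with 5 or fewer, 0.58 ± 0.026 in 1721 with 6 to 15, 0.70 ± 0.032 in 2965 with 16 to 25, 0.68 ± 0.052 in 1949 with 26 to 35 and 0.53 ± 0.092 in 1044 with more. The class with the fewest was the lowest in each replicate. Genes with the cAMP response element (TGACGTCA, in 3.41% of promoters) had a median of 0.77 and genes without it one of 0.63. Genes with the E-box that Myc and Max bind (CACGTG, in 10.8%) had a median of 0.72, against 0.62 without it. The other motifs searched went with a lower median, at 0.50 against 0.63 for 66 genes with an exact CTCF core motif and 0.56 against 0.63 for 530 with 1 mismatch allowed, 0.59 against 0.63 for the TATA box (TATAAA, in 6.48% of promoters) and 0.61 against 0.63 for the CArG box (in 1.23%). All were searched on both strands, and none of these differences was tested. Gene length and level were not held constant in these values.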
